A study of Homo sapiens with 12 samples.

Results

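Protein phosphatase 2A (PP2A) is a serine/threonine phosphatase, and 10 genes of its subunits are described here out of 60656 features listed in the tables. They are the scaffold genes PPP2R1A and PPP2R1B, the catalytic genes PPP2CA and PPP2CB, the B55 regulatory gene PPP2R2A and the B56 regulatory genes PPP2R5A, PPP2R5B, PPP2R5C, PPP2R5D and PPP2R5E. They were taken by gene name as a family that was chosen by its listed TPM in these 12 libraries, with earlier results in view, so their levels and the calls among them are a description. All 10 names were found, each once. Messenger RNA was sequenced in 12 stranded libraries of OCI-LY1, an established line from a human lymphoma of the DLBCL type, 3 in each of 4 groups. These were venetoclax-resistant OCI-LY1R cells given 1 µM decitabine for 3 days, OCI-LY1R cells given vehicle (DMSO), parental OCI-LY1 cells given 1 µM decitabine for 3 days, and parental cells given vehicle. OCI-LY1R was derived from the parental line by stepwise exposure to venetoclax, an inhibitor of the survival protein BCL2, up to 1 µM. Resistant cells are thus 1 derived line, and the labels do not state whether the replicates were separate cultures, so spread and p-values measure these libraries and may be technical. Decitabine is a cytosine analogue that is built into DNA and inhibits DNA methyltransferases.

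PP2A works as a trimer. A scaffold (A) subunit of stacked repeats holds a catalytic (C) subunit and 1 of many regulatory (B) subunits, which choose the substrate and the place in the cell. It removes phosphates placed by kinases such as AKT, acts on MYC and on proteins of the BCL2 family, and is regarded as a tumour suppressor whose activity is often curbed in blood cancers.

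Values are TPM, a length-normalised level that sums to 1000000 in every library, and they carry no depth, so no counting interval can be given. 1 library, replicate 3 of parental decitabine, differed from the remaining 11 in what its TPM was spent on and is shown by itself throughout. Protein-coding features took 89.4% of its TPM and features annotated as antisense 0.298%, against 26.6% to 32.2% and 34.9% to 48.7% in the 11. Germinal-centre B-cell markers, 9 in all, summed to 3286 TPM in replicate 3, where 8 of the 9 exceeded all of the 11 libraries. Their sum was 128 to 195 TPM in resistant decitabine, 45.2 to 140 in resistant vehicle, 34.4 to 50.01 in parental decitabine replicates 1 and 2, and 57.8 to 152 in parental vehicle libraries. T-cell, monocyte and fibroblast markers summed to at most 2.48 TPM in any library, and the epithelial markers to 34.8 TPM in replicate 3, nearly all EPCAM (33.4 TPM), and to at most 22.4 TPM in the 11. An exact 0 can be a failed estimate here, since the ubiquitin gene UBB was at 0 in 3 libraries and between 1543 and 2706 TPM in the others, so such values are called listed at 0. Of the 3778 features that reached 20 TPM in some library of the 11, 22.4% were listed at 0 in another.

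Sequence is shown first where it bears on what follows. The opening exon of PPP2CA lies opposite the microRNA gene MIR3661. By that position alone the mature microRNA is the exact reverse complement of PPP2CA coding sequence at chr5:134225777-134225798 (GRCh38.p14), which 2 of 6 annotated PPP2CA transcripts carry. Whether the microRNA acts on PPP2CA was not tested. The microRNA is given on the plus strand with its seed (bases 2 to 8) in capitals, and the PPP2CA stretch on the minus strand with the complement of the seed in capitals; the microRNA sequence is from RefSeq.
hsa-miR-3661: uGACCUGGgacucggacagcug
PPP2CA exon: cagctgtccgagtcCCAGGTCa

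Mammalian DNA methyltransferases, which decitabine inhibits, methylate mainly CpG sites. The start regions of the scaffold gene PPP2R1A (chr19:52189802-52190101, plus strand) and of the B56 gene PPP2R5A (chr1:212285160-212285459, plus strand) are therefore shown with every CG in capitals. They run from 250 bases before to 50 bases after a RefSeq transcript start in GRCh38.p14. PPP2R1A is shown for its switch between 0 and high values, and PPP2R5A as the 1 member with an unadjusted p under 0.05 for decitabine in parental cells. Such a p was shared by 18% of the 8122 features tested there, and PPP2R5A was not called (limma adjusted p = 0.247). Methylation was not measured.
PPP2R1A: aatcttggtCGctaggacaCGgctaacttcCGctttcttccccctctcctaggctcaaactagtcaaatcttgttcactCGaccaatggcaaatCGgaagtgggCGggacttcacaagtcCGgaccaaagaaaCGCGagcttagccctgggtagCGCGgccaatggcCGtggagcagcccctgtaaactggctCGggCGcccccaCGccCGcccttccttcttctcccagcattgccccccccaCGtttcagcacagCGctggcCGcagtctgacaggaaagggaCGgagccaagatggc
PPP2R5A: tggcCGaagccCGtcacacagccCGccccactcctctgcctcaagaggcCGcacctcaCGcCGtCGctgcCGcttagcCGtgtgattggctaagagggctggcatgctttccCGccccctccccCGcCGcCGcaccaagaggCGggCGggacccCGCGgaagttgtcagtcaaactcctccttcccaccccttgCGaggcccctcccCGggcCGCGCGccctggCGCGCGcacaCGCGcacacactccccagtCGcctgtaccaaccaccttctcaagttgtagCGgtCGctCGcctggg

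PPP2R1A holds 20 CG and PPP2R5A 31, against a median of 14 over 35116 windows of the same length. Of all windows, 58.8% hold fewer CG than that of PPP2R1A and 79.3% fewer than that of PPP2R5A. Windows of 8 of the 10 members were read, with 20 to 34 CG each, and 58.8% to 84.4% of all windows hold fewer. The motif GGGCGG, read on both strands, was in all 8 of them and in 45% of all windows.

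In parental decitabine replicate 3 every subunit was present. PPP2R5C (B56 gamma; chromosome 14, 101761798 to 101927989) led with 133 TPM, followed by PPP2R5D with 109, PPP2R1A with 106, PPP2R5A with 47.8, PPP2CA with 43.4 and PPP2R1B with 39.2 TPM. PPP2R5E was at 22.1, PPP2R2A at 16.7, PPP2CB at 13.3 and PPP2R5B at 9.93 TPM. In this 1 library the alpha form of the scaffold and of the catalytic subunit thus exceeded the beta form, and no spread can be given for that order.

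The other 11 libraries gave a different picture, in which only 5 of the 10 subunit genes had a mean of at least 1 TPM in a comparison. PPP2CB (the beta catalytic subunit; chromosome 8, 30774457 to 30814314) was listed at 0 in all 11. PPP2R5E (B56 epsilon; chromosome 14, 63371357 to 63543374) and PPP2R5B (B56 beta; chromosome 11, 64917553 to 64934473) were listed at 0 in 9 of 11 and reached at most 0.315 and 0.377 TPM. PPP2R2A, which encodes the B55 alpha subunit that counteracts mitotic phosphorylation (chromosome 8, 26291491 to 26372680), reached at most 0.828 TPM. PPP2R5C, the leading gene of replicate 3, had a median of 0.116 TPM and reached 1.22 TPM in 1 library. These 5 genes have no annotated exon on the opposite strand, apart from 3 bases of PPP2R5B.

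Replicate 3 exceeded all of the 11 for 8 of the 10 members, and for 85.1% of the 6953 protein-coding genes with at least 10 TPM in replicate 3. On the log2(TPM + 1) scale the members lay 0.42 to 6.91 above the median of the 11, with a median difference of 3.44, against 4.21 for those coding genes (quartiles 2.67 and 5.32). Those coding genes were picked for their level in replicate 3, so both values are a description. The members for which replicate 3 fell inside the range of the 11 were PPP2R1A and PPP2R5D. Both have at least 200 exonic bases covered by a feature on the opposite strand, and no other member has. The covered part is 9.55% of the exonic length of PPP2R1A and 36.03% of that of PPP2R5D. Whether the overlap bears on their place inside the range was not tested. Each group difference below is one of listed values, and the part of strand in it was not tested.

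**Figure D1:**
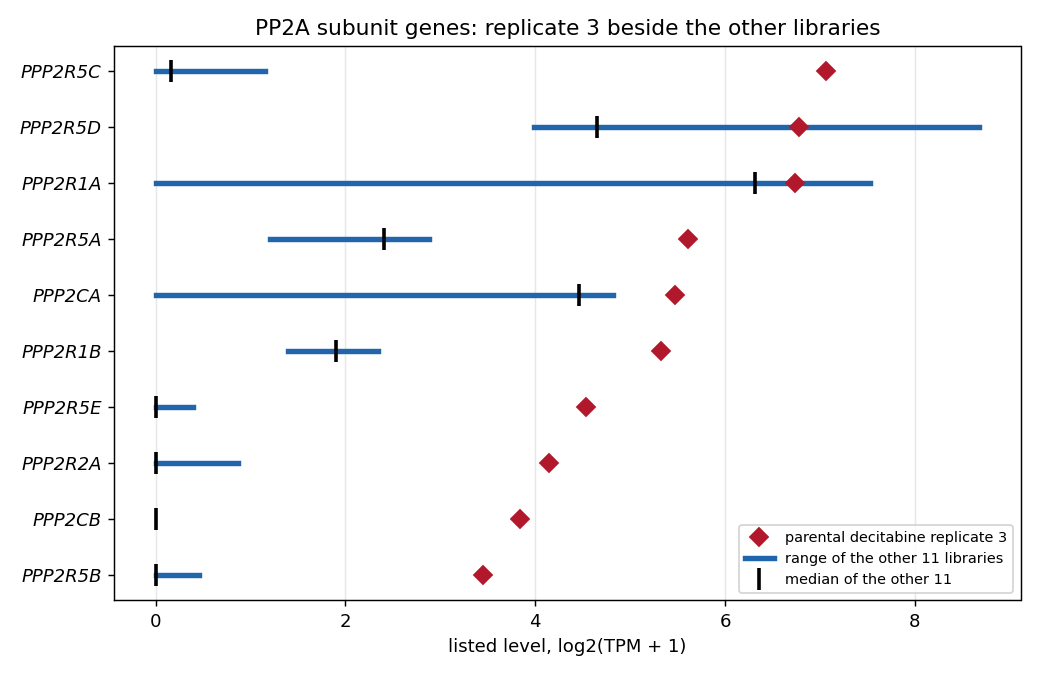
Listed level (log2(TPM + 1), horizontal) of the 10 subunit genes in parental decitabine replicate 3 (diamonds), with the range (bars) and median (ticks) of the other 11 libraries. Replicate 3 lies above all 11 for 8 genes, and inside their range for PPP2R1A and PPP2R5D.

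PPP2R1A (chromosome 19, 52190039 to 52229533, plus strand, GRCh38) encodes the alpha scaffold subunit, the form used by most PP2A trimers. It was listed at 0, 137 and 127 TPM in resistant decitabine libraries a, b and c and at 122, 183 and 149 TPM in resistant vehicle libraries. Among parental libraries, decitabine replicates 1 and 2 had 78.5 and 0 TPM, decitabine replicate 3 had 106 TPM, and the 3 vehicle replicates were at 0. The gene was thus either at 0 or at 78.5 TPM or more, both decitabine groups held 1 library at 0, and only the vehicle groups were uniform.

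Resistant and parental cells were first set against each other under vehicle, without drug. PPP2R1A was the member called here, of 5 tested (limma, Benjamini-Hochberg adjusted p = 0.000213 over 7761 features), with higher values in 3 of 3 resistant libraries. In this comparison 2.8% of all features were called, and 28.1% of features separated the 2 groups without overlap. The parental vehicle libraries are all listed at 0 and so have no spread, and no fold can be given against them. The call held in every alternative run, with an adjusted p of 0.000161 to 0.00658. Since the family was proposed with results such as this known, the call supports nothing further.

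The feature annotated as antisense to the 3′ part of PPP2R1A (chromosome 19, 52222225 to 52231294, minus strand) shares 710 exonic bases with it, 9.55% of the exonic length of PPP2R1A and 63.3% of its own. It was listed at 197, 1.86 and 24.04 TPM in resistant decitabine a, b and c and at 211, 0 and 60.6 TPM in resistant vehicle libraries. Among parental libraries, decitabine replicates 1 and 2 had 134 and 164 TPM, while decitabine replicate 3 and the 3 vehicle replicates were at 0. In parental cells it was high in both decitabine replicates fitted, while PPP2R1A was high in 1 of them. Its adjusted p there was 0.0037 by limma, against vehicle libraries that are all listed at 0 and so have no spread, and no feature at all was called with replicate 3 included or with the replicate number as a block. In resistant decitabine library a it was high where PPP2R1A was at 0, and in resistant vehicle library a both were high.

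The protein-coding gene whose pattern was most like that of PPP2R1A over the 11 libraries was CCDC51, which encodes a mitochondrial inner-membrane protein (chromosome 3, 48432164 to 48440456). Likeness was the root mean square difference of centred log2(TPM + 1) values among 2658 candidates, and it was 0.62 for CCDC51, 1.89 for MRPL9 and 2.002 for RINT1. CCDC51 was listed at 0, 179 and 304 TPM in resistant decitabine, at 197, 465 and 177 TPM in resistant vehicle, at 267 and 0 TPM in parental decitabine replicates 1 and 2, and at 0 in all 3 parental vehicle libraries. It was at 0 in the same 5 libraries as PPP2R1A, a set shared exactly by 2 features among 59490, 1 of them coding. In replicate 3 CCDC51 was at 19.8 TPM.

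**Figure D2:**
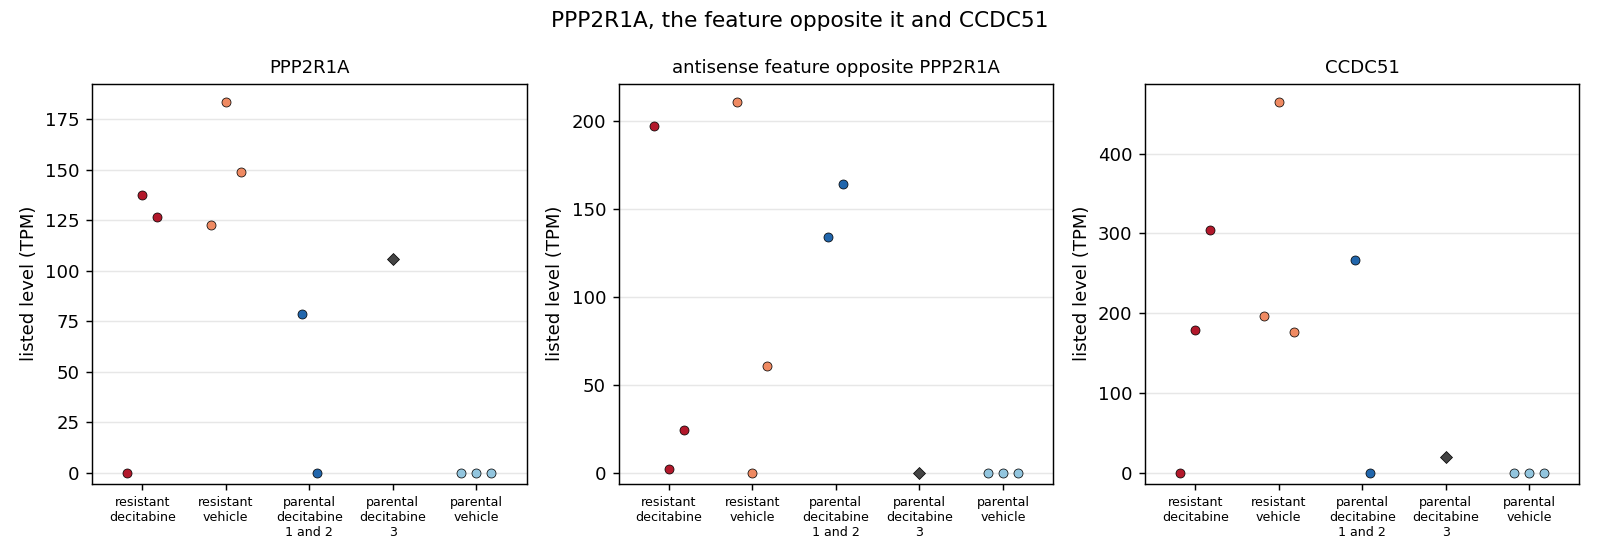
Listed level (TPM, vertical) of PPP2R1A, of the antisense feature opposite it and of CCDC51, 1 point per library in each group. PPP2R1A and CCDC51 are at 0 in the same 5 libraries, among them all 3 parental vehicle libraries, and the antisense feature is at 0 in those 3 too.

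Decitabine against vehicle addresses what the drug changes in each line, and no member was called in either. In parental cells, fitted without replicate 3, 0 of 5 tested members were called by limma (1 at an unadjusted p under 0.05), where 1.86% of all features were called, 18% had an unadjusted p under 0.05 and 39.4% separated the groups. In resistant cells 0 of 5 were called (0 at an unadjusted p under 0.05), against 3.59% of features, with 19.8% at an unadjusted p under 0.05 and 28.4% separating the groups. The difference of the responses called 0 of 5 members and 0.364% of all features. The differences of PPP2R1A had wide errors in both lines, since 1 decitabine library of each stood against its fellows. The log2 difference was 3.16 (SE 1.92, adjusted p = 0.44) in parental cells and -2.53 (SE 1.95, adjusted p = 0.523) in resistant cells. Without parental decitabine replicate 2, in which the gene is at 0, the PPP2R1A difference in parental cells was 6.31. That fit sets 1 decitabine library against vehicle libraries that are all listed at 0, so no p-value is read from it. Without resistant decitabine a the PPP2R1A difference in resistant cells shrank to -0.18.

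PPP2R1B encodes the beta scaffold subunit (chromosome 11, 111726908 to 111766427), a less abundant form. It was at 39.2 TPM in parental decitabine replicate 3, and low and even in the other 11 libraries. Resistant decitabine libraries had 1.67, 2.62 and 2.43 TPM, and resistant vehicle libraries 2.82, 1.62 and 1.97. Parental decitabine replicates 1 and 2 had 3.42 and 3.39 TPM, and parental vehicle libraries 2.85, 2.73 and 4.08. With decitabine its log2 difference was 0.08 (SE 0.29) in parental and 0.05 (SE 0.33) in resistant cells, so nothing beyond the spread was seen. Resistant cells averaged 2.14 ± 0.617 TPM under vehicle and parental cells 3.22 ± 0.75 TPM (SD, n = 3 each; log2 difference -0.43, limma adjusted p = 0.499). Under decitabine all 3 resistant libraries lay below both parental ones, a separation shared by 32% of features (-0.46, adjusted p = 0.611, with 0.831% of features called).

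PPP2CA (chromosome 5, 134194334 to 134226142, minus strand) encodes the alpha catalytic subunit, the main source of PP2A activity. It was listed at 21.1, 0 and 23.4 TPM in resistant decitabine and at 23.8, 26.3 and 27.3 TPM in resistant vehicle libraries. Parental decitabine replicates 1 and 2 had 20.6 and 21.6 TPM, replicate 3 had 43.4 TPM, and the vehicle replicates had 14.1, 0 and 19.8 TPM. Where it was not at 0, it thus stayed within 14.1 to 27.3 TPM in the 11 libraries.

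Decitabine libraries lay above all vehicle libraries in parental cells and below all of them in resistant cells, but neither difference was called. Such separation was shared by 39.4% of features in parental and 28.4% in resistant cells, so it is not particular to PPP2CA. The log2 difference was 1.70 (SE 1.46, adjusted p = 0.569) in parental and -1.72 (SE 1.26, adjusted p = 0.499) in resistant cells. The test of the difference between the lines gave -3.42 (SE 2.08, limma adjusted p = 0.605). Most of these values came from 1 library listed at 0 on each side: without parental vehicle replicate 2 the parental difference was 0.32, and without resistant decitabine b the resistant one was -0.21. Resistant vehicle libraries were above parental vehicle libraries in 3 of 3, a separation shared by 28.1% of features. The log2 difference was 1.98 (SE 1.17, limma adjusted p = 0.408), or 0.60 without parental vehicle replicate 2.

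MIR3661 (chromosome 5, 134225757 to 134225852, plus strand) overlaps PPP2CA exons by 93 of its 96 bases, of which the sequences above show 22. MIR3661 was singled out after its values were seen. It was listed at 1086, 1198 and 1053 TPM in resistant decitabine, 1315, 1666 and 1334 in resistant vehicle, 1211 and 1040 in parental decitabine replicates 1 and 2, and 821, 970 and 1145 TPM in parental vehicle libraries. In replicate 3, where PPP2CA was at its highest, MIR3661 was at 0.0197 TPM. A feature of this length gains high TPM from few reads, so the level does not compare with that of the far longer PPP2CA. The libraries were of messenger RNA, and whether these values stem from the mature microRNA was not tested. Replicate 3 is also the library in which features annotated as antisense took 0.298% of TPM. In the other libraries they took from 34.9% (resistant decitabine c) to 48.7% (resistant vehicle b). The part of strand in the MIR3661 values was not tested, so no inverse relation to PPP2CA is read from replicate 3. Resistant vehicle libraries were above parental vehicle libraries for MIR3661 as for PPP2CA, and as for 28.1% of features in either direction. The log2 difference of MIR3661 was 0.56 (SE 0.16, limma adjusted p = 0.145), and it was not called.

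PPP2R5A encodes the B56 alpha subunit, which directs PP2A to MYC (chromosome 1, 212285537 to 212361863), and no exon is annotated opposite it. It was above 0 in every library, and at 47.8 TPM in parental decitabine replicate 3. Resistant decitabine libraries had 4.47, 4.62 and 6.38 TPM, and resistant vehicle libraries 2.40, 4.50 and 2.21. Parental decitabine replicates 1 and 2 had 4.31 and 4.59 TPM, and parental vehicle libraries 2.39, 2.11 and 1.32. Both parental decitabine replicates fitted exceeded all vehicle replicates, a separation shared by 39.4% of features. In resistant cells the lowest decitabine library and the highest vehicle library met.

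Means were 4.45 ± 0.198 TPM with decitabine (SD, n = 2) and 1.94 ± 0.558 TPM with vehicle (SD, n = 3) in parental cells, and 5.16 ± 1.06 against 3.04 ± 1.27 TPM in resistant cells (SD, n = 3 each). The log2 difference was 0.91 in parental cells (SE 0.32, adjusted p = 0.247) and 0.64 in resistant cells (SE 0.34, adjusted p = 0.337), neither past the threshold. The median over all features was itself 0.21 in both comparisons, and with quantile scaling, which brings it near 0, the differences of PPP2R5A were 0.56 and 0.17. The responses differed by -0.27 between the lines (SE 0.45, limma adjusted p = 0.879).

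PPP2R5D encodes the B56 delta subunit, mutated in a neurodevelopmental syndrome (chromosome 6, 42984499 to 43012342, plus strand). It was at 24.4, 24.2 and 30.2 TPM in resistant decitabine, 21.7, 29.4 and 21.1 in resistant vehicle, 23.3 and 20.8 in parental decitabine replicates 1 and 2, and 14.9, 409 and 25.6 TPM in parental vehicle replicates 1, 2 and 3. Among the 11 libraries parental vehicle replicate 2 alone held a high value, and the other 10 spanned 14.9 to 30.2 TPM. Parental decitabine replicate 3 had 109 TPM.

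MEA1 lies tail to tail with PPP2R5D on the minus strand (chromosome 6, 43011143 to 43016868) and shares 1194 exonic bases with it, 36.03% of the exonic length of PPP2R5D and 39.6% of its own. MEA1 was at 692, 773 and 670 TPM in resistant decitabine, 686, 747 and 686 in resistant vehicle, 645 and 694 in parental decitabine replicates 1 and 2, and 687, 105 and 707 TPM in parental vehicle replicates. In parental vehicle replicate 2 MEA1 was low where PPP2R5D was high, and PPP2R5D took 79.5% of their summed TPM, against 2.12% to 4.31% in the other 10 of the 11. In parental decitabine replicate 3 PPP2R5D was at 109 and MEA1 at 86.4 TPM, a share of 55.8%.

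That library sets the parental vehicle values of PPP2R5D. The log2 difference was -1.28 for decitabine in parental cells (SE 1.52, limma adjusted p = 0.681) and -1.17 for resistant against parental cells under vehicle (SE 1.22, adjusted p = 0.638). Without parental vehicle replicate 2 both turned, to 0.16 and 0.27. In resistant cells, where no such library occurred, decitabine and vehicle averaged 26.3 ± 3.41 and 24.1 ± 4.605 TPM (SD, n = 3 each; 0.13, SE 0.21, limma adjusted p = 0.756).

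**Figure D3:**
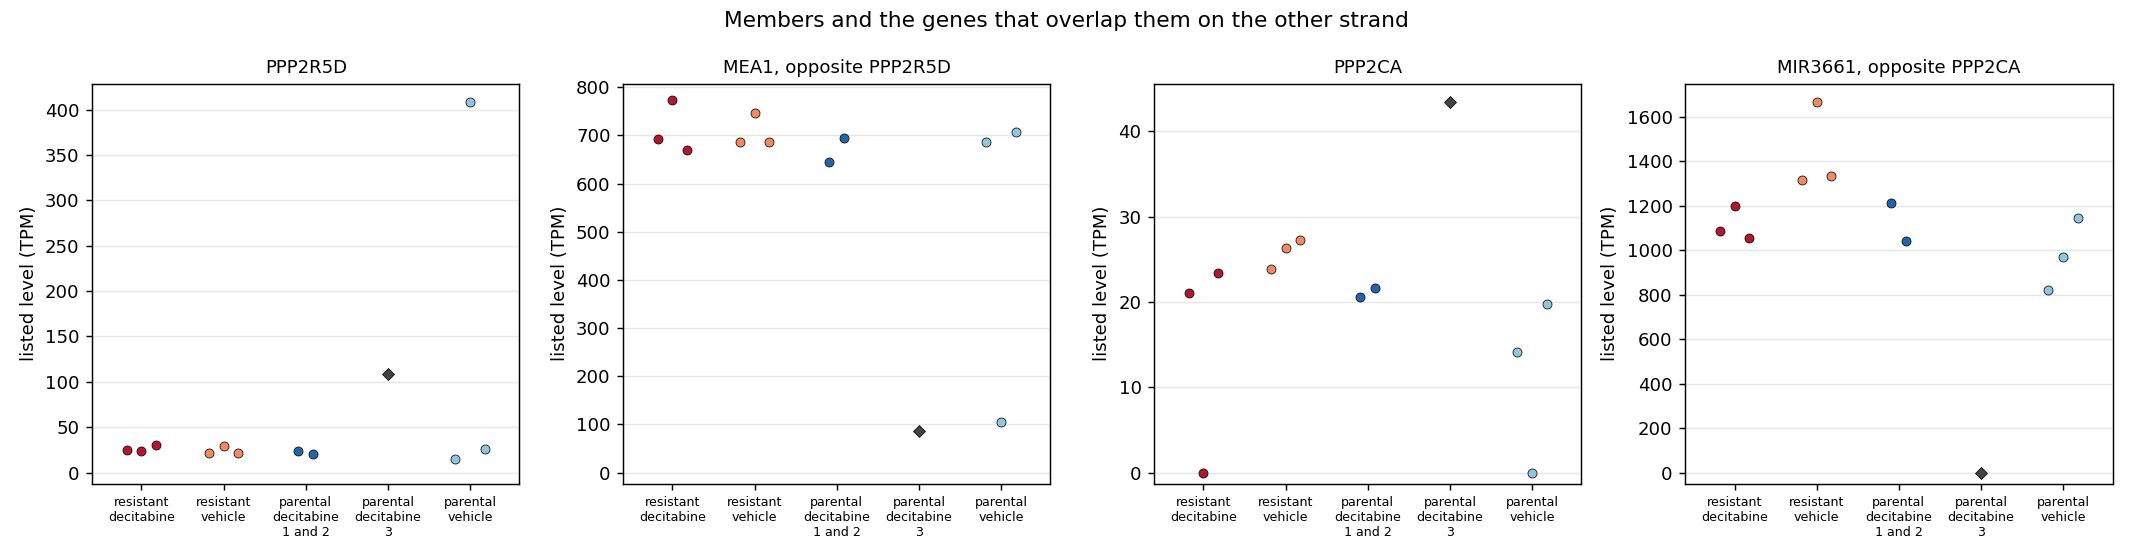
Listed level (TPM, vertical) of PPP2R5D and MEA1 and of PPP2CA and MIR3661, which overlap on opposite strands, 1 point per library in each group. In parental vehicle replicate 2 PPP2R5D is at 409 and MEA1 at 105 TPM, and MIR3661 is near 0 only in parental decitabine replicate 3.

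**Figure D4:**
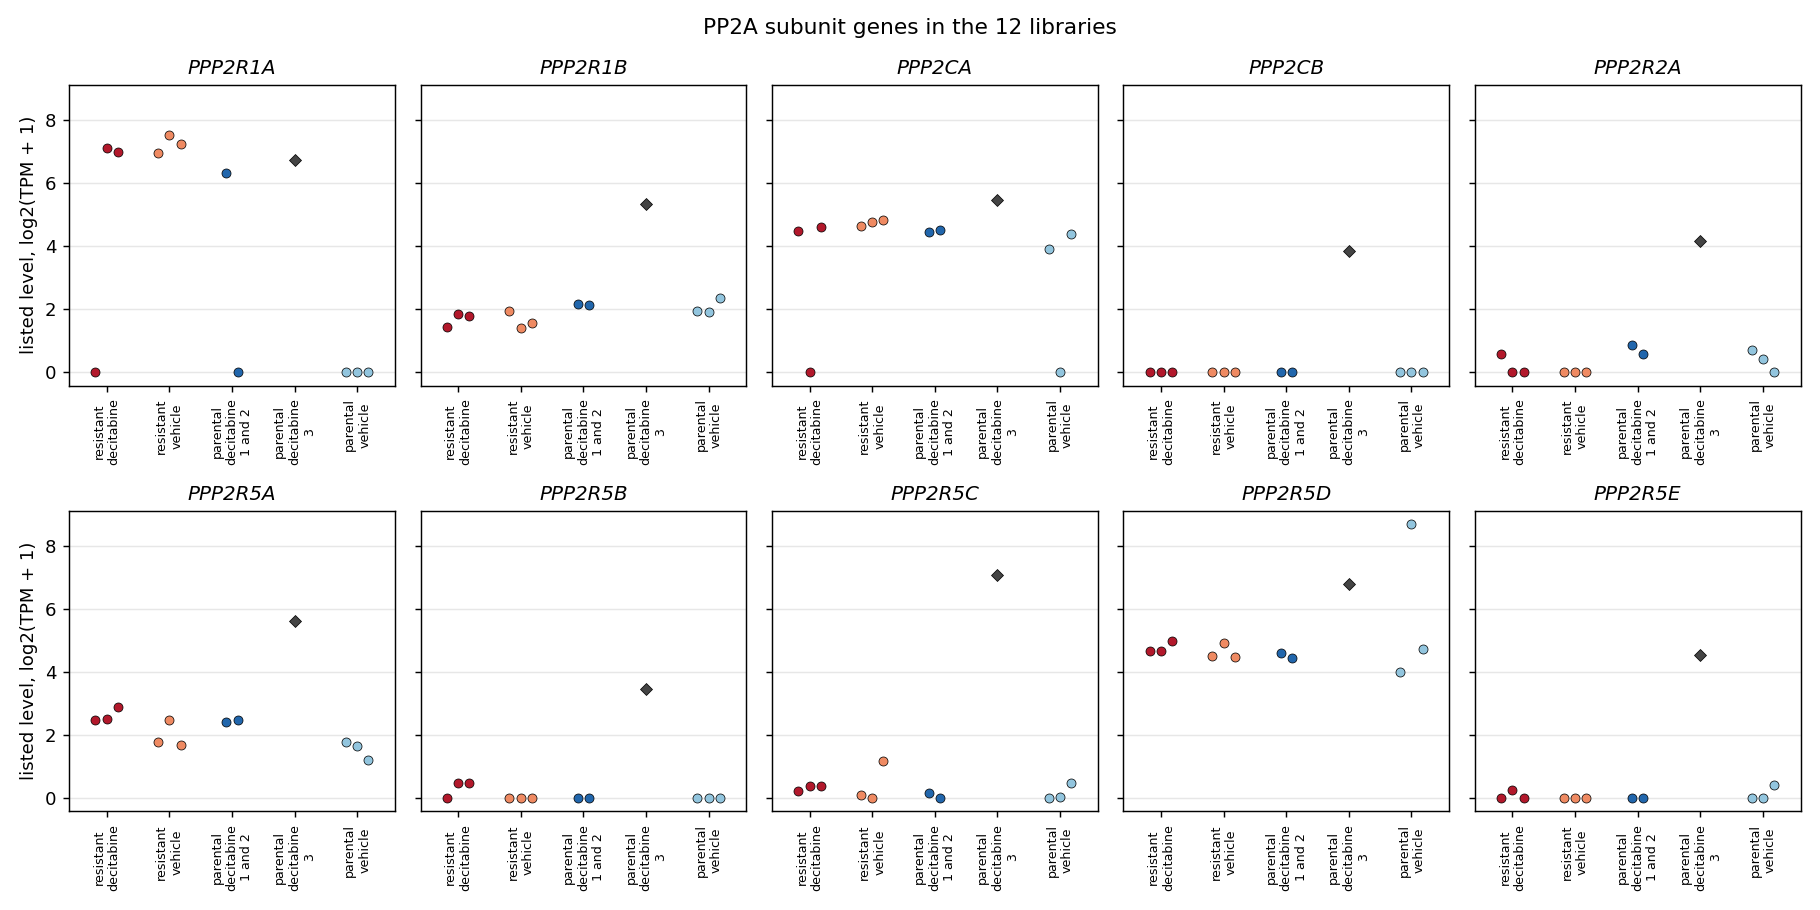
Listed level (log2(TPM + 1), vertical) of the 10 subunit genes, 1 point per library in each group, with parental decitabine replicate 3 as a diamond. PPP2CB, PPP2R2A, PPP2R5B, PPP2R5C and PPP2R5E lie near 0 outside replicate 3, while PPP2R1A and PPP2CA switch between 0 and higher values within groups.

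**Figure D5:**
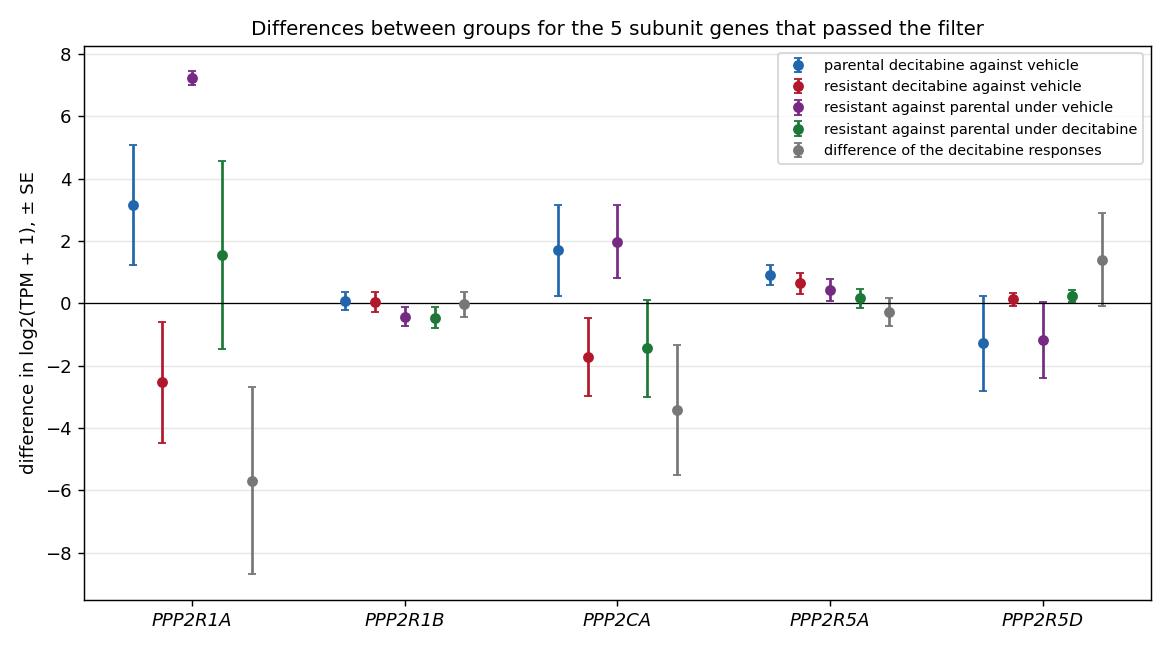
Difference in log2(TPM + 1) between groups (vertical, with SE) for the 5 subunit genes that passed the filter in each of the 5 comparisons. The value of 7.23 for PPP2R1A in resistant against parental cells under vehicle stands against parental libraries listed at 0, so its size depends on the pseudocount, and none of the other differences was called.

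In resistant against parental cells under decitabine, 0 of 5 members were called. PPP2R1A differed by 1.55 (SE 3.02, adjusted p = 0.858), which turned to -1.61 without parental decitabine replicate 2. PPP2CA differed by -1.44 (SE 1.55, adjusted p = 0.734), or 0.07 without resistant decitabine b, and PPP2R5A by 0.16 (SE 0.30, limma adjusted p = 0.848). PPP2R5D was above both parental replicates in 3 of 3 resistant libraries by a small margin (0.24, SE 0.20, limma adjusted p = 0.661). Such separation was shared by 32% of features.

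Genes of the wider PP2A network were not called in any of the 5 comparisons, but few were tested and only 0.364% to 3.59% of all features were called, so nothing about the network is read from that. Of 9 further regulatory subunits, 3 were tested and 0 called, namely PPP2R3C, STRN3 and STRN4. Of 13 proteins of PP2A assembly, methylation and inhibition, 2 or 3 were tested and 0 called. Of 9 catalytic subunits of related phosphatases, 5 or 6 were tested and 0 called, and of 8 partners of the B56 subunits 2 were tested and 0 called. Their medians beside that of all features were 0.07, 0.28, 0.65 and 1.03 against 0.21 for decitabine in parental cells, and 0.39, 0.44, 0.96 and 0.46 against 0.21 in resistant cells. For resistant against parental cells under vehicle they were 0.30, 0.23, -0.22 and -0.51 against 0.11.

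Most of the network was below the filter of 1 TPM in the 11 libraries. The inhibitor gene SET had 374 TPM in replicate 3, against 9.57 to 18.4 in the 11, and the inhibitor gene ANP32A had 211 TPM against at most 1 TPM. The inhibitor gene CIP2A had 22.1 TPM in replicate 3 and was listed at 0 in 8 of 11. LCMT1, the methyltransferase of the catalytic subunit, had 24.6 TPM there and was listed at 0 in all 11. All 13 genes of this list were higher in replicate 3 than in each of the 11, and so were 8 of 8 B56 partners, 8 of 9 related catalytic subunits and 4 of 8 further regulatory subunits. Of the 6953 protein-coding genes with at least 10 TPM in replicate 3, 85.1% exceeded all 11. A high level there is thus not particular to these lists. Among regulatory subunits PPP2R3C had 25.4 TPM in replicate 3, against 19.6 to 87.7 TPM in the 11, and PPP2R3A 0.00729 TPM, against 0.246 to 0.998 TPM. PPP1CA, a catalytic subunit of protein phosphatase 1, was the related catalytic gene that did not exceed the 11, with 309.8 TPM in replicate 3 against 178 to 407 TPM in the 11.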

How the data were processed

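RNA-seq values of 12 libraries were taken from 2 deposited tables, 1 per line. The deposited values carry no unit and were taken to be TPM, because every library totals 1000000 and StringTie is named. HISAT2, StringTie, DESeq2 and hg38 are named per the submitters' processing notes, with no versions, and neither annotation nor strand setting is stated in the sources used here. Depth is unknown.

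Rows were taken by gene name, because the identifier beside the name belonged to another gene for all 10 members. Only the 59490 unique names were used, which drops 1166 features with a repeated name, among them PPP2R3B. Parental columns were matched by title; resistant columns were matched to groups and lettered a, b and c. Positions are from GENCODE 29 (GRCh38).

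Comparisons used limma 3.58.1 with trend (R 4.3.3) on log2(TPM + 1); features averaging under 1 TPM across fitted libraries were dropped, and the rest called at a Benjamini-Hochberg adjusted p under 0.05 over all of them; differences are on that scale and understate low genes. Parental decitabine replicate 3 was left out of the fits. The tests were tried on simulated data, drawn as normal values around the mean of each feature. These were not built to reproduce groups listed wholly at 0, so nothing about the PPP2R1A call is read from them. Members and lists were chosen with earlier results of these data known. Text names all members, the features opposite them by at least 200 exonic bases, list genes called, and the 3 coding genes of mean at least 5 TPM most like the member of widest range. MIR3661 and the list genes given as levels were named beyond that rule, after their values were seen.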

Additional observations from a re-analysis of the deposited data

Results flagged for a closer look

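Parental decitabine replicate 3 enters none of the fits. Protein-coding features took 89.4% of its TPM, against 26.6% to 32.2% in the other 11 libraries. Of the 6953 protein-coding genes with at least 10 TPM there, 85.1% exceeded all 11, so a high level there is not particular to the members. In this library 9 of the 10 members had a level above all 3 parental vehicle libraries. They were PPP2R1A (106 TPM, with 0 as the highest vehicle value), PPP2R1B (39.2 against 4.08), PPP2CA (43.4 against 19.8), PPP2CB (13.3 against 0), PPP2R2A (16.7 against 0.605), PPP2R5A (47.8 against 2.39), PPP2R5B (9.93 against 0), PPP2R5C (133 against 0.377) and PPP2R5E (22.1 against 0.315 TPM). PPP2R5D was the exception, at 109 TPM against 409 TPM in vehicle replicate 2. Parental decitabine replicates 1 and 2 had the same drug and did not share most of these levels: PPP2CB, PPP2R5B and PPP2R5E were listed at 0 in both, PPP2R5C was at 0.116 and 0 TPM, PPP2R2A at 0.828 and 0.501, PPP2R1B at 3.42 and 3.39, PPP2R5A at 4.31 and 4.59, PPP2CA at 20.6 and 21.6, and PPP2R1A at 78.5 and 0 TPM.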

How the results depend on the processing

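Alternatives were quantile and median-ratio scaling, no filter on low values, a 5 TPM filter, a 0.1 pseudocount, inclusion of parental decitabine replicate 3, a replicate block (parental decitabine against vehicle), and dropping single libraries. The count of members called by limma was 1 for resistant against parental cells under vehicle in all of them, leave-one-out included (1 to 1). It was 0 in all for the other comparisons, except 0 to 1 over the libraries left out for decitabine in parental cells, where leaving out decitabine replicate 2 leaves a lone sample assumed to vary like the vehicle group. Of 299 alternative values of single members, 280 moved by less than the replicate spread or kept their call, and 18 moved further. The remaining 1 was PPP2R1A in the fit with the lone sample. No called value changed sign, but only 1 member difference was called. Where single libraries stand apart that spread is wide, so the 280 include changes of sign. Examples are PPP2R1A under decitabine (1.55 to -1.61) and PPP2R5D for decitabine in parental cells (-1.28 to 0.16). Calls over all features moved more: decitabine in parental cells gave 151, and 0 to 264 over the alternatives (0 with replicate 3 included and 0 with the replicate block); decitabine in resistant cells 308, and 73 to 344; resistant against parental cells 217 under vehicle, and 58 to 228, and 75 under decitabine, and 0 to 75; the difference of responses 31, and 1 to 47. Scaling moved the median of all features from 0.21 to -0.02 (quantile) for decitabine in parental cells and to -0.06 in resistant cells. With the replicate block 0 members were called; same-numbered parental libraries deviated with correlations of -0.01 and -0.01 over 8122 features, so the numbers were not taken as pairs. No replicate block was run for the other comparisons. Resistant columns are numbered too, but they were matched to groups and not to single samples. How a block would change the calls there, such as the 308 for decitabine in resistant cells, was not tested.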
